A study of Mus musculus with 8 samples.

Results

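Desert hedgehog (Dhh), its receptors and the proteins that carry or damp its signal were followed in laser-captured testis of mice given di-(2-ethylhexyl) phthalate (DEHP), a plasticiser, or its vehicle. The 8 genes were Dhh, Ptch1, Smo, Gli1, Gli2, Gli3, Hhip and Sufu, of 27962 gene names on the array, and 16 probes carried those names. They were chosen by the ratio of DEHP over vehicle on these arrays: Dhh had a small p with the same sign in every mouse pair, and the rest of the pathway was added to it. The DEHP over vehicle values of these genes are therefore descriptions, and no test of them is given.

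The DEHP mice were 4 adult male C57BL/6J mice that received DEHP (200 mg/kg/day, dissolved in corn oil) by daily gavage for 21 days, and the vehicle mice were 4 males of the same strain given corn oil alone. Treatment began at an age of 18 weeks, and all mice were 21 weeks old when the right testis was taken. The labels call the captured tissue Sertoli-cell-rich areas from the intermediate layer of the tubule epithelium, while the text of the extraction protocol names Leydig cells as the cells captured. RNA of single mice was amplified for 2 rounds and hybridised to 8 Agilent arrays with 2 colours each, every pair of 1 DEHP and 1 vehicle mouse in both dye orientations.

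Desert hedgehog is the hedgehog ligand made by Sertoli cells, the somatic cells of the seminiferous tubule. It is secreted and acts mainly on the cells outside the tubule, the Leydig and peritubular myoid cells, where it binds Ptch1 and so frees Smo, which turns the Gli transcription factors on. Ptch1, Gli1 and Hhip are themselves switched on by the signal in responding cells, and in the mouse loss of Dhh leaves males infertile and impairs Leydig cell differentiation.

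Probes of 60 bases report these genes, and the stretches below are bases 31 to 60 of the probes that the results turn on, namely the ones above background and 1 probe of the receptor and target gene Ptch1. They are given as in the array files, read 5′ to 3′, and capitals mark the letters AATAAA, the usual polyadenylation signal, where a probe holds them.
Dhh A_52_P232637: tttgtggccaaAATAAAgattctagagtga
Smo A_51_P258766: ttcaagaaccagacaacaggatgccttaga
Sufu A_51_P396550: tgttggaggacttagaagatctaacctctc
Sufu A_52_P603184: accaatcaattctcagcgacagaacggcct
Sufu A_52_P340811: tatatcagtttttaatgtcagtggcgactc
Ptch1 A_51_P127435: catgtcaggtgtgagaggagggactcaaag

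In the positions of the array design (build mm7), the Dhh probe lies at chr15:98878292-98878351 on the minus strand and the Smo probe at chr6:29693371-29693430 on the plus strand. The 3 Sufu probes lie on the plus strand at chr19:46380235-46380294, chr19:46351403-46351462 and chr19:46385251-46385310, in the order listed. The Ptch1 probe lies at chr13:61333864-61333923 on the minus strand. Exon annotation of mm7 was not used here. The AATAAA letters stand in 2 of the 16 member probes, the one for Dhh and 1 for Gli3 (A_51_P171288), and in 1967 of all 41174 probes (4.78%). In RefSeq's promoters of GRCm38.p6, short windows near a start of each gene, the GLI motif GACCACCCA was searched on either strand. It was found in 83 of 32851 promoters (0.253%) and in 0 of the 7 members with a promoter there (Gli1 has no entry). The direct repeat of the peroxisome proliferator element, with any base between its repeats, was found in 13 promoters (0.0396%) and in 0 of the 7. The windows of Ptch1 (chr13:63565686-63565985) and Gli2 (chr1:119053570-119053869), both on the minus strand, lay inside their genes. In RefSeq the 5′ ends of these genes are at 63573460 and 119054405, so their outermost starts were not searched. The motif counts are letter matches only.

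Of 41174 probes, 22975 were kept for the comparison because their spots stood well above background in 4 or more of the 8 DEHP channels or of the 8 vehicle channels. Between 49.8% and 59.5% of the spots in a channel passed that mark, and precision is limited by the small number of mice. Across probes, the dye-swapped arrays of a pair correlated by 0.54 to 0.72 after both were turned to DEHP over vehicle. Of 17 Sertoli cell markers 15 were measured, with summed intensities of 25587 to 33420 in DEHP mice and 22828 to 31695 in vehicle mice, and Gata4, a defining marker, was among those not above background. All 10 elongating spermatid markers were well above background in every channel, with summed intensities of 762722 to 1076230 in DEHP mice and 782306 to 1098750 in vehicle mice. The captured areas thus held RNA of late germ cells in both groups, and its part in the values below was not tested.

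Detection divided the pathway. Dhh, Smo and Sufu were above background, and Ptch1, Gli1, Gli2, Gli3 and Hhip had no probe that was kept. Smo and Sufu, like the 5 genes not kept, act in cells that receive the ligand. The 5 kept probes, 1 for Dhh, 1 of 3 for Smo and 3 of 3 for Sufu, were well above background in all 16 channels. The other 11 were above it in 0 of 8 DEHP channels and in at most 2 of 8 vehicle channels.

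**Figure D1:**
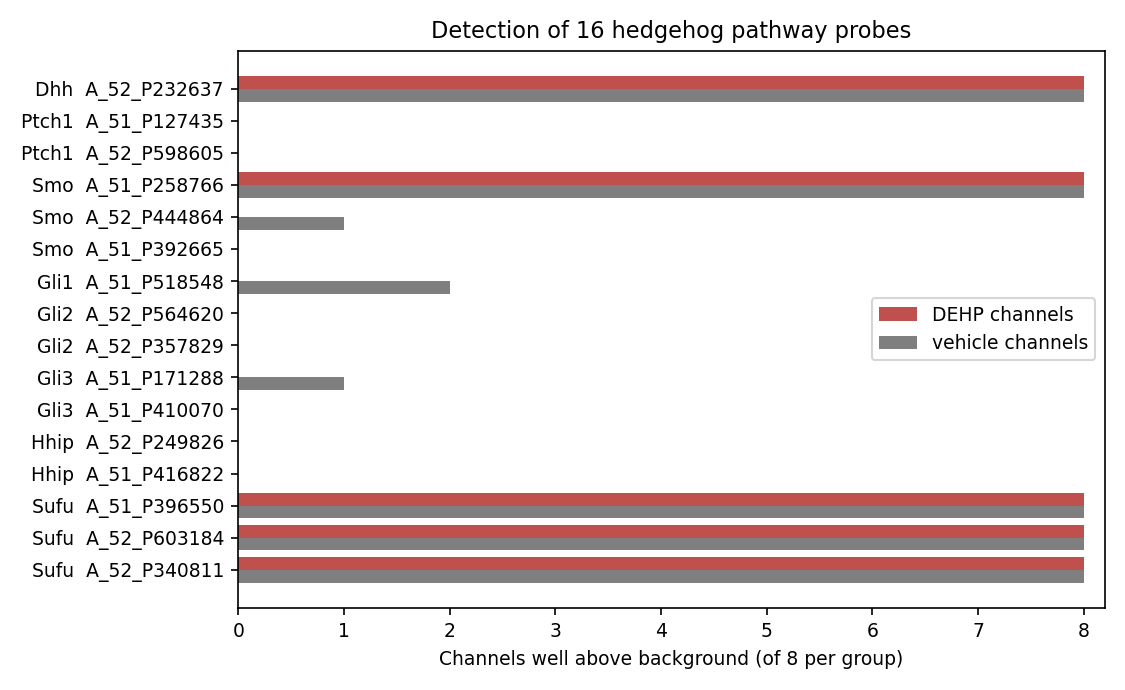
Number of channels, of 8 DEHP and 8 vehicle channels, in which each of the 16 probes was well above background. The probe of Dhh, 1 probe of Smo and the 3 of Sufu reach 8 in both groups, and no other probe passes 2.

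In DEHP mice, the Dhh probe had levels of 10.05, 10.10, 10.21 and 9.88 in mice 1 to 4, against 9.60, 9.68, 9.91 and 9.99 in vehicle mice 1 to 4. These are log2 intensities after normalisation, each the mean of a mouse's Cy5 and Cy3 channels. Each mouse was measured only on the arrays it shared with its partner, so mouse and array cannot be told apart in these levels. DEHP mouse 4 lay below vehicle mice 3 and 4, so the groups overlapped, by 0.11 on the log2 scale, while the other 3 DEHP mice lay above all 4 vehicle mice. The means were 10.06 ± 0.14 in DEHP mice and 9.80 ± 0.18 in vehicle mice (SD, n = 4 each). Of all kept probes, 0.749% had every DEHP mouse above every vehicle mouse and 1.04% had every DEHP mouse below, and no member probe was among either.

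Within pairs, where the mice shared their arrays, the Dhh ratio of DEHP over vehicle was above 0 throughout. The log2 ratio was 0.37 in pair 1 (DEHP mouse 1 and vehicle mouse 2), 0.19 in pair 2 (DEHP mouse 2 and vehicle mouse 3), 0.23 in pair 3 (DEHP mouse 3 and vehicle mouse 4) and 0.28 in pair 4 (DEHP mouse 4 and vehicle mouse 1). Its mean was 0.26 ± 0.078 (SD, n = 4 pairs), a ratio of 1.20. From lowest to highest level, the DEHP mice ran 4, 1, 2 and 3, and their partners, vehicle mice 1, 2, 3 and 4, ran in the same order. All 4 pairs being above 0 is what Dhh was chosen for, and it held for 6.56% of kept probes. In bulk RNA of this kind, more Sertoli cells in the captured area and more Dhh RNA per cell cannot be told apart.

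All 8 arrays had a Dhh ratio above 0, which 1.88% of kept probes showed, and these are the arrays whose pair means chose Dhh. With DEHP in Cy5 the log2 ratios were 0.51, 0.29, 0.30 and 0.32 in pairs 1 to 4, and with DEHP in Cy3 they were 0.22, 0.085, 0.16 and 0.23. Every pair thus had its higher value in the Cy5 orientation, with means of 0.35 and 0.17. That difference does not depend on the contrast that chose the gene and could be tested: in limma, with the pair as a random block, the orientation term of Dhh was 0.18 (adjusted p = 0.0119). It was past the threshold for 5723 of 22975 probes (24.9%). All arrays with DEHP in Cy5 were on slide 1 and those with DEHP in Cy3 on slide 2, so dye and slide cannot be told apart. The mean over both orientations cancels a dye effect that is equal on both slides, but not a dye effect that differs between them.

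**Figure D2:**
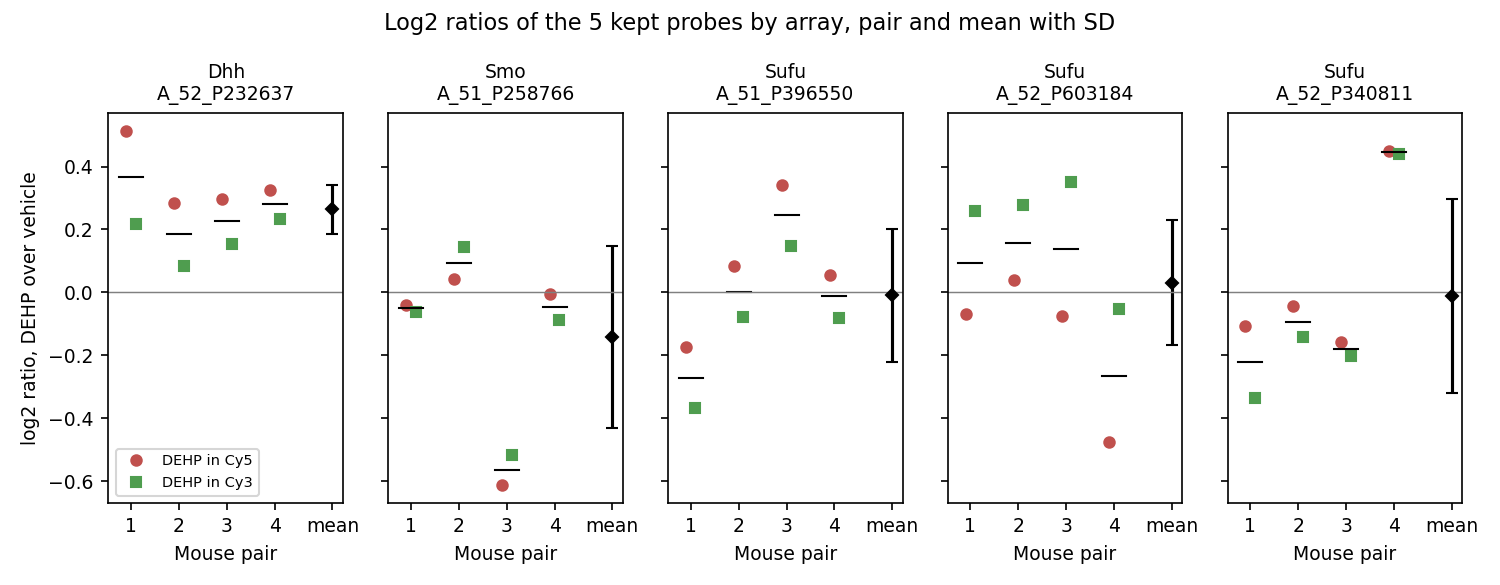
Log2 ratio of DEHP over vehicle for the 5 kept probes by mouse pair (x axis), with circles for arrays with DEHP in Cy5, squares for DEHP in Cy3, short bars for pair means and a diamond for the mean with its SD over 4 pairs. All 8 points lie above 0 for Dhh, while those of Smo and of each Sufu probe lie on both sides of 0.

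The authors' deposited table of log2 ratios held a row for the same Dhh spot. In the authors' deposited table, the pair values were 0.54, 0.27, 0.26 and 0.29, with a mean of 0.34 over the pairs. It also held Smo, with a mean of -0.14 there and here, and Sufu A_52_P603184, with 0.12 there and 0.031 here. Sufu A_52_P340811 differed more, at -0.46, -0.81, -0.43 and 0.72 by pair, with a mean of -0.24 there against -0.011 here.

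Markers of the ligand's own cells had values on both sides of 0. Of the 15 measured Sertoli markers, 9 had a mean ratio above 0 and the median was 0.014, beside 48.9% above 0 and a median of -0.0021 over all kept probes. Schwann cells also make Dhh, and 5 of their 6 markers were measured. Their summed intensities were 1674 to 2070 in DEHP mice and 1275 to 2091 in vehicle mice, and 4 of the 5 had a mean ratio above 0, with a median of 0.033. Whether either cell type's share of the captured area bears on the Dhh ratio was not tested.

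Rhebl1 and Lmbr1l are the nearest genes on either side of Dhh in RefSeq (GRCm38.p6). Rhebl1, a small GTPase gene, had mean log2 ratios of 0.073 ± 0.19 and 0.059 ± 0.28 at its 2 probes, and Lmbr1l had -0.075 ± 0.51 (SD, n = 4 pairs each). All 3 neighbour probes had pairs on both sides of 0.

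Ptch1, the receptor that hedgehog ligands bind and itself a target of the signal, was in 0 of 8 DEHP channels and 0 of 8 vehicle channels well above background at both of its probes. Its probe spotted 10 times (A_51_P127435) had signals after subtraction of local background of 3.00 to 11.5 in DEHP channels, with a median of 6.47, and 6.50 to 17.1 in vehicle channels, with a median of 8.76. The second (A_52_P598605) had -1.77 to 2.92 in DEHP channels and -0.71 to 6.73 in vehicle channels. With both groups at background, no ratio is given. Hhip, a membrane protein that binds and holds hedgehog ligands, was likewise above background in 0 of 16 channels at both probes, with medians of 7.48 in DEHP and 10.8 in vehicle channels at A_52_P249826 and 1.80 in DEHP and 5.13 in vehicle channels at A_51_P416822.

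Smo, the membrane protein that Ptch1 holds in check, had levels of 7.71, 8.08, 7.63 and 7.67 in DEHP mice 1 to 4, against 7.71, 7.76, 7.99 and 8.19 in vehicle mice 1 to 4 (log2 intensity, A_51_P258766). The groups overlapped over nearly their whole range. By pair, its log2 ratios were -0.051, 0.095, -0.56 and -0.046, with a mean of -0.14 ± 0.29 (SD, n = 4 pairs). Without pair 3 the mean was -0.00074. Pair 3 stood below the others on both of its arrays, at -0.61 (DEHP labelled with Cy5) and -0.52 (DEHP labelled with Cy3). In the authors' deposited ratios, pairs 1 to 4 of this probe had -0.16, 0.55, -0.85 and -0.098, so there pair 2 departed upwards as well. The probe was dim, with background-subtracted medians of 85.8 in DEHP and 121 in vehicle channels, beside the offset of 50 used here. The other 2 Smo probes were above background in 0 of 8 DEHP channels each, and in 1 of 8 (A_52_P444864) and 0 of 8 (A_51_P392665) vehicle channels.

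The Gli genes encode the transcription factors at the end of the pathway, Gli1 an activator and Gli2 and Gli3 proteins that can activate or, when cleaved, repress. Gli1 (A_51_P518548, spotted 10 times) was above background in 0 of 8 DEHP channels and 2 of 8 vehicle channels, with signals of 8.65 to 18.5 in DEHP channels and 9.21 to 31.0 in vehicle channels. The 2 Gli2 probes were above background in 0 of 16 channels each, with medians of 10.1 in DEHP and 14.5 in vehicle channels at A_52_P564620 and 8.29 in DEHP and 12.4 in vehicle channels at A_52_P357829. Of the Gli3 probes, A_51_P171288 was above background in 0 of 8 DEHP channels and 1 of 8 vehicle channels, and A_51_P410070 in 0 of 16. These signals were not normalised between arrays or dyes, and a probe below background shows neither that the RNA was absent nor that it was equal between groups.

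Sufu, the cytoplasmic inhibitor that binds the Gli proteins, was the only member with 3 probes above background, and they did not move together. At A_51_P396550 the levels were 10.58, 10.41, 10.80 and 10.58 in DEHP mice 1 to 4, against 10.60, 10.86, 10.41 and 10.55 in vehicle mice 1 to 4. Its log2 ratios by pair were -0.27, 0.0021, 0.25 and -0.013, with a mean of -0.0092 ± 0.21. The groups lay on top of each other at this probe.

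At A_52_P603184 the levels were 9.27, 8.99, 9.11 and 9.02 in DEHP mice 1 to 4, against 9.28, 9.18, 8.83 and 8.97 in vehicle mice 1 to 4. The log2 ratios were 0.094, 0.16, 0.14 and -0.26 by pair, with a mean of 0.031 ± 0.20, and pair 4 alone lay below 0. The third probe, A_52_P340811, had 7.61, 7.65, 7.56 and 7.78 in DEHP mice, against 7.33, 7.83, 7.74 and 7.74 in vehicle mice. Its log2 ratios were -0.22, -0.093, -0.18 and 0.45, with a mean of -0.011 ± 0.31 (SD, n = 4 pairs for each probe), and here pair 4 alone lay above 0. In no pair did the 3 Sufu probes share a sign, and each overlapped between the groups.

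Dye orientation bore on Sufu as well. The orientation term was -0.35 at A_52_P603184 (adjusted p = 0.00132 in limma), 0.17 at A_51_P396550 (adjusted p = 0.0276) and 0.095 at A_52_P340811 (adjusted p = 0.318). The mean log2 ratio over the Cy5 and Cy3 orientations was -0.15 and 0.21 at A_52_P603184, 0.077 and -0.095 at A_51_P396550, and 0.036 and -0.059 at A_52_P340811. The sign of this mean thus turned with the orientation at all 3 Sufu probes. At A_52_P340811, though, each pair had the same sign in both orientations, and at each of the others some pairs did. Smo had an orientation term of -0.023 (adjusted p = 0.818).

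**Figure D3:**
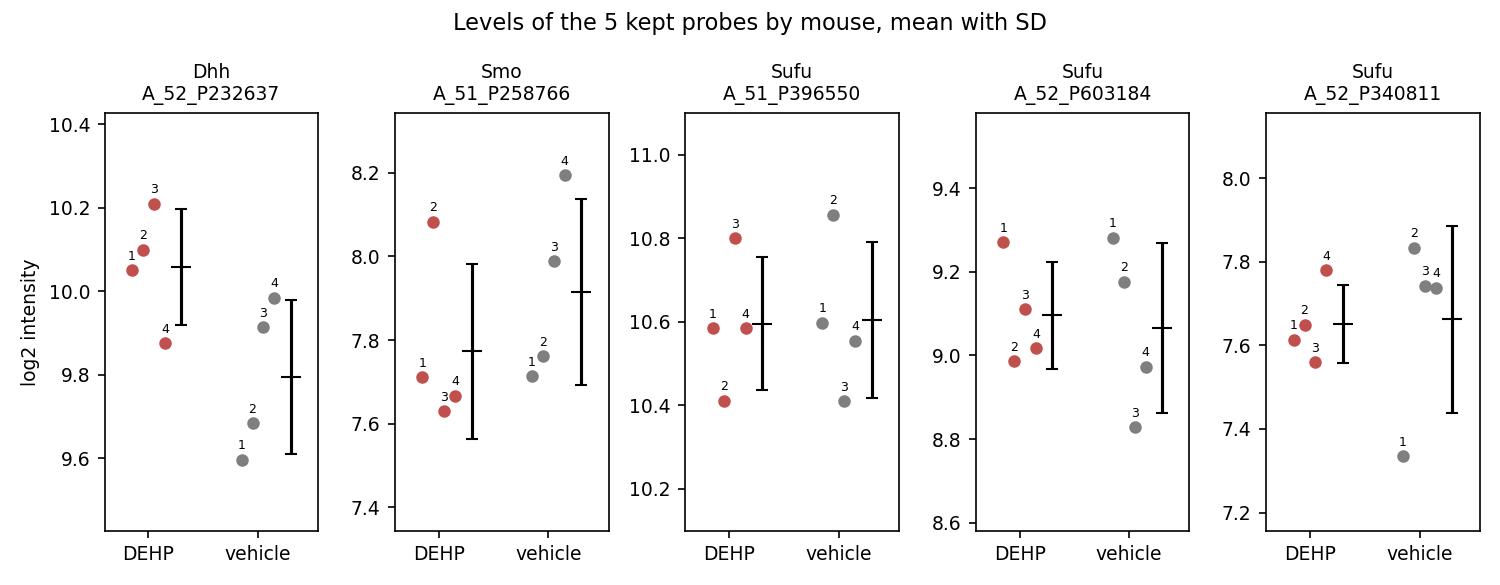
Normalised log2 intensity of the 5 kept probes in each mouse (numbered points), with the mean and SD of 4 DEHP mice at the left of each panel and of 4 vehicle mice at its right. Every axis covers 1 log2 unit, and the groups overlap in all 5 panels, with 1 DEHP mouse of Dhh below 2 vehicle mice.

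Taking the brightest kept probe of each gene, 1 of the 3 measured members (Dhh) had a mean ratio above 0, beside 48.9% of kept probes, and the members' median was -0.0092. The other 5 members entered neither count. Over all kept probes, limma called 0 of 22975 at an adjusted p under 0.05 (0%), with a smallest adjusted p of 0.903, and 1055 had an unadjusted p under 0.05 (4.59%), 2.29% with a higher and 2.3% with a lower level in DEHP mice.

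Outside the 8 genes, 42 of 56 further hedgehog pathway genes were measured, and 0 passed the test in either direction. At an unadjusted p under 0.05 the number was also 0, in limma, against the 4.59% of all kept probes. Of the 42, 16 had a mean log2 ratio above 0 and 26 below, with a median of -0.043, and 1 was above 0 in all 4 pairs and 4 were below 0 in all 4, where 6.56% and 7.08% of kept probes were.

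Among genes for the making and release of the ligand, 4 of 8 were measured, and the other mammalian ligands Shh and Ihh were below the detection rule. Hhat, the acyltransferase that attaches palmitate to hedgehog ligands, had 0.090 ± 0.16, and Disp1, the transporter that releases them from the membrane, had -0.084 ± 0.22 (mean log2 ratio ± SD, n = 4 pairs, here and for the genes that follow). Disp1 had 0.18 and 0.0077 in pairs 1 and 2 against -0.23 and -0.30 in pairs 3 and 4.

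Of the receptor and co-receptor genes 3 of 6 were measured, and all 3 had a mean ratio above 0. Lrp2, the large endocytic receptor megalin, had 0.19 ± 0.31, and Boc, a co-receptor at the cell surface, had 0.14 ± 0.22. None of the 3 had the same sign in all 4 pairs. Gas1 and Cdon, the co-receptors that act beside Boc, were below the detection rule.

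Signal transduction genes had 17 of 20 measured, 7 with a mean ratio above 0, and a median of -0.068. Evc2, a ciliary partner of Smo, was below 0 in all pairs, at -0.11, -0.074, -0.31 and -0.093, with a mean of -0.15 ± 0.11. Cul3, the scaffold of the ubiquitin ligase that degrades Gli proteins with Spop, was below 0 in all pairs as well, at -0.36, -0.0013, -0.33 and -0.029, with a mean of -0.18 ± 0.19. Evc2 had its lowest value in pair 3, and Cul3 was near 0 in pairs 2 and 4.

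Hedgehog signalling in mammals runs through the primary cilium, and all 10 genes of ciliary transport and structure were measured, 3 of them with a mean ratio above 0 and with a median of -0.062. Ift80 and Ift122, subunits of the intraflagellar transport particles, had -0.17 ± 0.17 and -0.29 ± 0.44, each with 3 of 4 pairs below 0. These genes also serve the sperm tail, and the late germ cell markers measured above were present in all channels.

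Of 12 target genes, 8 were measured, 1 had a mean ratio above 0, and the median was -0.043. That split says little, since Snai1 (-0.00014) and Mycn (0.00011) were at 0 and several others were dim. Foxl1, Bcl2, Ccnd2 and Ccnd1 had mean log2 intensities of 7.03, 7.06, 7.07 and 7.12. Gli1, which was not kept, had mean levels of 6.95 in DEHP and 6.95 in vehicle mice. Nr2f2, a nuclear receptor of Leydig precursor and other interstitial cells, had -0.21 ± 0.26, and Ccnd1, cyclin D1, had -0.11 ± 0.11, each below 0 in 3 of 4 pairs. Leydig markers, whose cells answer Dhh, were measured for 6 of 10, and 1 of the 6 had a mean ratio above 0, with a median of -0.14. Their summed intensities ran from 3403 to 11746 in DEHP mice and from 3543 to 11588 in vehicle mice. These sums were mostly Insl3, with mean log2 levels of 12.12 in DEHP and 12.25 in vehicle mice. Cyp17a1, the next brightest, had 8.97 and 9.12. The mean log2 level of the 6 ran from 8.36 to 8.95 in DEHP mice and from 8.45 to 9.07 in vehicle mice. Cyp11a1, Lhcgr, Hsd17b3 and Hsd3b6 were below the detection rule. Insl3, the Leydig cell hormone, ranged from 11.05 to 13.31 in DEHP mice and from 11.08 to 13.25 in vehicle mice (log2 intensity), with pair ratios of -0.98, 2.23, -1.49 and -0.25. Its spread over mice covered a similar range in both groups, and its part in the target genes' values was not tested.

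**Figure D4:**
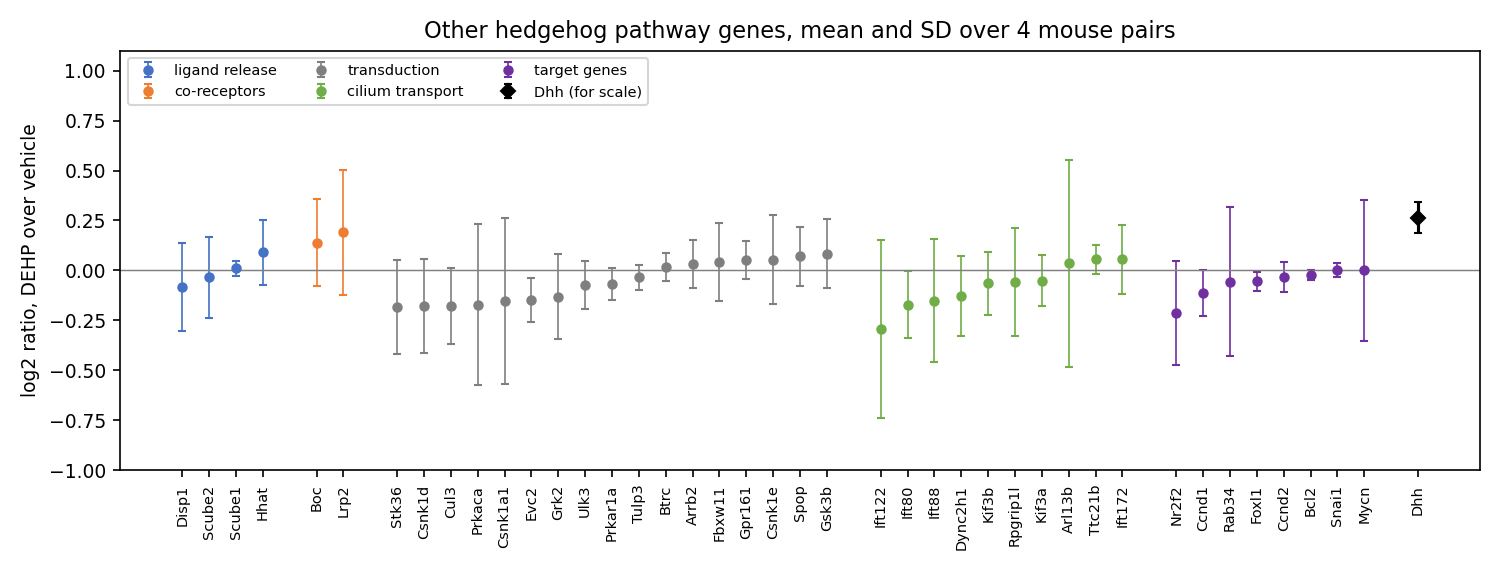
Mean log2 ratio of DEHP over vehicle with its SD over 4 mouse pairs for 41 of the 42 measured hedgehog pathway genes outside the members, by list, with Dhh at the right for scale. The means run from -0.29 (Ift122) to 0.19 (Lrp2), and Dhh, drawn for scale only, was chosen for its value of 0.26.

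Across the 8 mice, 48 of 14307 other genes (0.336%) had a Pearson correlation over 0.9 with the Dhh level. The 5 highest among named genes were Dtymk (0.97), Dlg2 (0.97), Stard9 (0.96), Tspan31 (0.95) and Ap2s1 (0.95). They are, in that order, thymidylate kinase, a scaffold protein of synapses, a kinesin with a lipid-binding domain, a tetraspanin and the small subunit of the clathrin adaptor AP-2. Dtymk had levels of 11.49, 11.45, 11.69 and 11.36 in DEHP mice 1 to 4, against 10.94, 11.05, 11.43 and 11.41 in vehicle mice 1 to 4, so that vehicle mice 1 and 2 were lowest, as for Dhh. The mean log2 ratios of the 5 were 0.29, 0.071, 0.13, 0.28 and 0.091. Paired mice shared arrays, Dhh itself differed in group means, and the genes were the highest of many, so these values only describe the 8 mice. Smo (0.18) and Sufu (-0.17 at its brightest probe) did not follow Dhh across mice.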

How the data were processed

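Mean foreground and median background intensity per spot were deposited as scanned with Agilent Feature Extraction 9.5.1.1, per the file headers. That software also wrote a log10 ratio (Cy5 over Cy3) from signals it had corrected for background and dye, per the file headers. The authors' deposited table holds log2 ratios. Its direction (DEHP over vehicle) and its match to spots by row number were found from the values (Spearman correlation 0.931 to 0.968 with the scanner ratios). limma is named in the submitters' processing notes, and its settings are not given in the sources used here.

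Intensities were corrected by normexp (offset 50) and normalised by loess within arrays, with control and outlier spots at weight 0. Spots of a probe were averaged, ratios were turned to DEHP over vehicle, and the 2 arrays of a pair were averaged. An intercept was fitted to 4 pair means (limma 3.58.1, R 4.3.3, 2-sided, Benjamini-Hochberg at 0.05), after a check on simulated data. A channel counted as well above background where 50% or more of a probe's spots were marked so. That cut-off was picked from 4 tried, because it gave the same number of kept probes as an earlier analysis of these data (22975). The others gave 23009 for any spot, 22971 for a majority of spots and 22951 for every spot, and results were recomputed under them. Mouse levels used Aquantile between arrays and separate channels.

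The members and lists were chosen with earlier results of these data known. Named genes were all members, the 2 genes per list with the smallest unadjusted p, the 5 genes most like Dhh across mice, and Leydig and Schwann markers. Shh, Ihh, Gas1, Cdon, the neighbours of Dhh and the targets Snai1, Mycn, Foxl1, Bcl2 and Ccnd2 were named after their values were seen. Probes were matched to RefSeq symbols by accession (22951), symbol (6659) or synonym (3109), and 8455 were not matched. Some items are not reported here. Alternatives covered background, normalisation, filter, dye orientation, pairing, array weights, the deposited ratios and each pair left out.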

Additional observations from a re-analysis of the deposited data

Results flagged for a closer look

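Of 25 groups of 4 values examined (4 pair ratios, 4 DEHP mice and 4 vehicle mice for each kept member probe, and the pair ratios of the 10 other pathway genes named by p), 2 held a value far from the other 3. Chance marks about 1 in 20 such groups. For Sufu at A_52_P603184, pair 4 lay at -0.26 against 0.094 to 0.16 in the others, and the gap took a share of 0.85 of the whole range. For Evc2, pair 3 lay at -0.31 against -0.11 to -0.074 in the others, and the gap took a share of 0.833 of the range.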

How the results depend on the processing

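The Dhh ratio was positive, the sign it was chosen for, under all 19 alternatives, between 0.17 and 0.35. Changes of filter and spot cut-off alone, and the fit with the pair as a random block, left the Dhh, Smo and Sufu means unchanged by construction. The Dhh ratio moved by more than its SD over pairs under 2 alternatives. These gave 0.35 on the arrays with DEHP in Cy5 alone and 0.17 on those with DEHP in Cy3 alone, and the cause was not tested. Leaving out each pair in turn gave 0.23 to 0.29. With no replicate block, on 8 unpaired mouse levels, the mean stayed 0.26 by construction, limma called 0 probes, and 855 had an unadjusted p under 0.05, against 1055 with the pairing, which comes from the labels. Probes called and other hedgehog genes called stayed at 0 under all 19 alternatives, and the median of the other hedgehog genes ran from -0.065 to -0.0067. Members with a positive mean ratio numbered 2 in place of 1 with Agilent's processed ratio, with median centring and with DEHP in Cy5 alone, and 1 to 2 as pairs were left out, 2 without pair 1. Smo was negative in 19 of 19 alternatives, but without pair 3 its mean was -0.00074 in place of -0.14, and the Sufu probes had both signs. The alternatives with background subtracted and no offset, and the 3 other spot cut-offs (1054 to 1057 probes at an unadjusted p under 0.05), were chosen after seeing the data. The deposited ratios gave no value for Sufu A_51_P396550, and Dhh mouse levels were recomputed under 6 settings (0.23 to 0.33). The 4 pairs and, for 11 of 16 member probes, signal at background limit what can be seen.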
